A study of Mus musculus with 3 samples.

Results

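Far from any annotated gene start, in the neural stem cells treated with TGFb, 10904 JMJD3 peaks lay on Smad3 peaks. They were chosen from the 63154 peaks of the JMJD3 list by 3 limits: a midpoint more than 50 kb from the closest transcription start site (TSS), a midpoint outside the transcript of that closest gene, and at least 1 bp shared with a Smad3 peak. They made up 17.3% of all JMJD3 peaks (95% exact Clopper-Pearson interval 17.0 to 17.6) and 75.1% (74.3 to 75.8) of the 14528 JMJD3 peaks that met the first 2 limits. The rule used both lists, so the overlap is a description and not a finding. Joined where they lay at most 10 bp apart, the shared peaks fell into 8387 JMJD3 regions. The word intergenic holds for the closest transcript only, since 2386 of the shared peaks (21.9%, 21.1 to 22.7) had their midpoint inside another listed transcript. That transcript can belong to some other gene or to the closest gene itself, and these cases were not counted apart.

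The cells were cultured from the cerebral cortex of wild-type mouse embryos (E12.5) and grown with EGF at 20 ng/ml and FGF at 10 ng/ml. TGFb was given at 5 ng/ml, and the series text states 30 minutes for both immunoprecipitations. Chromatin immunoprecipitation with sequencing was done once for Smad3 and once for JMJD3, and an input library, also labelled, was not analysed here. With 1 library per antibody no value has a replicate error, intervals cover counting error only, and without an untreated library no value is an effect of TGFb. The lists hold peak positions only, so depth and enrichment are unknown, and the width of a region is the only measure of its extent. As a check of the labelled cell type, both factors had a peak within 1 kb of the TSS of 10 of 10 neural stem cell markers, 1 of 5 neuronal, 0 of 5 glial and 0 of 4 microglial markers. Of all 16428 genes named in either list, 55.1% had such peaks of both factors. Such peaks are not a measure of expression.

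Smad3 is a transcription factor that enters the nucleus after the TGF-beta receptors phosphorylate it and binds DNA with Smad4 and partner factors. JMJD3, encoded by Kdm6b, removes methyl groups from lysine 27 of histone H3, a mark laid down by Polycomb complexes. Stretches far from gene starts can hold enhancers, which act on promoters through looping of the chromatin, and genes of developmental transcription factors often sit beside long gene-poor intervals. The closest gene named for a remote peak need not be the gene on which it acts.

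The bases under the remote peaks are not shown, because no genome of the files' build, mm9, was used. Shown in their place are promoters of 3 genes that are among the 20 with most remote shared regions, carried a promoter peak of both factors and have a single entry in the RefSeq promoter table of GRCm38.p6. Each runs 5′ to 3′ on the gene's strand from 250 bases before to 50 after the start. Zfp36l1 encodes an RNA-binding protein of mRNA decay (chr12:80112964-80113263, minus strand), Klf6 a Krüppel-like factor (chr13:5861239-5861538, plus strand) and Sox4 an SRY-box factor of neural progenitors (chr13:28953650-28953949, minus strand). Capitals mark CAGAC, the 5-base Smad element, read on either strand (GTCTG), the AP-1 element TGANTCA and the E-box CANNTG.
Zfp36l1 promoter: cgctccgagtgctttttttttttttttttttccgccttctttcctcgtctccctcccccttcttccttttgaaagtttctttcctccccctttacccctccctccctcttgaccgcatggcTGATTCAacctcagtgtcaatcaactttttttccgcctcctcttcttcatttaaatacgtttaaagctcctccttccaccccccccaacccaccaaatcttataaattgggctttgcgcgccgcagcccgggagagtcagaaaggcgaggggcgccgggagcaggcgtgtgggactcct
Klf6 promoter: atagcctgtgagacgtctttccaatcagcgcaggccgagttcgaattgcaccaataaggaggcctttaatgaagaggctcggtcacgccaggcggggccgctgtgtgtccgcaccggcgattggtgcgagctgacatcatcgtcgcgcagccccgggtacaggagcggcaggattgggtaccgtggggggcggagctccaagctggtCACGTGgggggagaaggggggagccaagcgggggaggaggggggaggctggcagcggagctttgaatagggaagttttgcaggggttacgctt
Sox4 promoter: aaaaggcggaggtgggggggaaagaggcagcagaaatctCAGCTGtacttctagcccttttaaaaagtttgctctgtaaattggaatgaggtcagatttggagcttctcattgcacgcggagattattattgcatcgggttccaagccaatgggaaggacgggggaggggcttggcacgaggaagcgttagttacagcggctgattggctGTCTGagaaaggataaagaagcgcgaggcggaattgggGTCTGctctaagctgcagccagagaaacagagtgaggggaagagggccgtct
The Sox4 window held 2 CAGAC elements and 1 E-box, the Klf6 window 1 E-box and the Zfp36l1 window 1 AP-1 element. Of all 32851 promoters in that table, 49.6% held CAGAC, 7.81% TGANTCA and 72.3% CANNTG. Of the 1398 promoters of genes that were closest to a remote shared peak and had a promoter peak of both factors, 45.1%, 5.22% and 59.9% held them, close to the 46.3%, 4.51% and 61.8% of the 8271 promoters of all genes with a promoter peak of both. Of 16 promoters of the 20 genes with most shared regions, 3 held CAGAC, 1 TGANTCA and 10 CANNTG. A match is a string of letters and not a binding site.

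Most of the remote JMJD3 peaks were largely covered by Smad3. Smad3 peaks covered a median of 81.5% of the bases of a shared peak (quartiles 63.3% and 96.3%), and at least 50% of the bases in 9477 of the 10904 (86.9%). Coverage was under 10% in 137 peaks, and 273 shared fewer than 50 bp with any Smad3 peak, down to 1 bp, the limit of the rule. The midpoints of a JMJD3 peak and its most overlapping Smad3 peak were a median of 80 bp apart, and at most 100 bp apart in 6545 of the 10904. One Smad3 peak was met by 7660 of the JMJD3 peaks (70.2%), and several by 3244 (29.8%). In all, 12311 Smad3 peaks were involved, of which 12296 met the same distance and gene limits and 12300 named the same closest gene. At promoters, where 14835 JMJD3 peaks within 1 kb of a TSS overlapped Smad3, median coverage was 91.4% and the median midpoint offset 85 bp.

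JMJD3 regions were usually the wider of the pair at remote sites, but this was not particular to them. Over all regions of each list the median width was 640 bp for JMJD3 and 450 bp for Smad3. Among them, the remote shared regions had a median width percentile of 52.2 for JMJD3 and 64.0 for Smad3. The median width of the 8387 regions was 660 bp for JMJD3 (quartiles 520 and 870) and 560 bp for the Smad3 region they met (400 and 770). JMJD3 was wider in 5792 (69.1%), Smad3 in 2495 (29.7%) and the widths were equal in 100. The median ratio of JMJD3 to Smad3 width was 1.19, with 10% of regions below 0.771 and 10% above 2.02. At promoters shared by both factors the medians were 821 bp and 800 bp and the ratio 1.06, with JMJD3 wider in 56.5%. Across the remote regions the widths of the factors were related, with a Spearman rank correlation of 0.61 over 8387 regions that share their libraries and genome intervals. JMJD3 peaks that met the distance and gene limits but not Smad3 (3624 peaks, called JMJD3-only here) lay in regions of 470 bp median width, and Smad3 peaks without JMJD3 (7878 peaks, called Smad3-only) in regions of 350 bp. Wider peaks have more room to overlap, so these widths bear on the rule and were not tested.

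**Figure D1:**
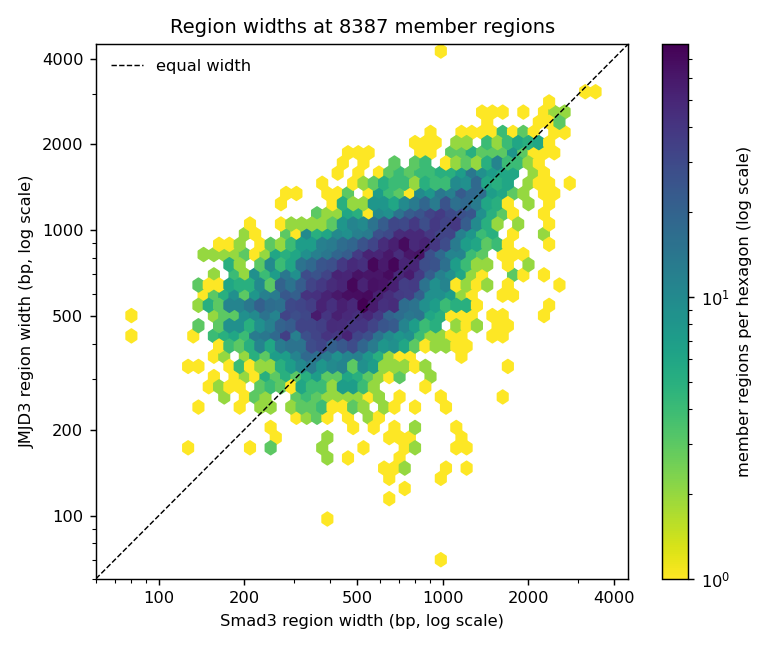
Width in bp of each of the 8387 remote shared JMJD3 regions (member regions in the plot; vertical, log scale) against the widest Smad3 region it overlaps (horizontal, log scale), with darker colour for a higher number of regions per hexagon (log scale) and a dashed line of equal width. Most regions lie above the line, where JMJD3 is wider (69.1%).

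In 121 remote regions (1.44%) both factors spanned at least 1500 bp. For each factor by itself, 10% of remote shared regions exceeded 1121 bp for JMJD3 and 1031 bp for Smad3. At promoters shared by both factors these widths were 1390 bp and 1421 bp. The region that ranked highest by the lower of its JMJD3 and Smad3 width percentiles lay 58552 bp downstream of the TSS of Cxxc5, a CXXC zinc finger gene, on chromosome 18 from 36047031 to 36050170. It spanned 3140 bp for JMJD3, in 7 adjoining peaks, and 3450 bp for Smad3. The next lay at -235007 bp from the TSS of Pabpc6 (a minus sign means upstream) on chromosome 17 (10096791 to 10099800), with 3010 bp and 3071 bp. A region 155785 bp downstream of Arhgap12 had 2640 bp for JMJD3 and 2670 bp for Smad3. In the first 3 the Smad3 region was the slightly wider one.

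Of the other regions among the 10 widest, the fourth was at 6430527G18Rik on chromosome 12, with 2550 bp for JMJD3 and 2730 bp for Smad3, and the eighth at Gm6772 with 2421 bp and 2570 bp, both in the largest cluster described further on. At Traf3ip2 the widths were 2640 bp and 2400 bp, and this was the region of the 10 that lay inside another listed transcript. Those at Mtss1 (2800 bp and 2330 bp) and Cstad (2710 bp and 2291 bp) were wider for JMJD3. At Npvf, which encodes a neuropeptide, both spanned 2400 bp, at -122709 bp from the TSS on chromosome 6.

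The shared peaks reached far beyond the 50 kb limit. Their median distance from the closest TSS was 123261 bp (quartiles 76352 and 224315 bp). Between 50 and 100 kb lay 39.2%, between 100 and 200 kb 31.8%, between 200 and 500 kb 23.6%, and beyond 500 kb 5.42%. Farthest of all was a region of 531 bp for JMJD3 and 550 bp for Smad3 on chromosome 4 (78231831 to 78232361), 1991893 bp upstream of Ptprd, a receptor tyrosine phosphatase gene of synapses. The others of the 5 farthest lay at Pcdh19, a protocadherin gene, Celf4, an RNA-binding protein gene of neurons, Hace1, a ubiquitin ligase gene, and Flrt2, a guidance and adhesion gene. Their distances were 1870341, 1828796, 1787469 and 1762858 bp, and their JMJD3 widths 340, 400, 551 and 390 bp, all below the median. Just inside the limit were peaks at 50011, 50015 and 50047 bp from A930012L18Rik, Prkd1 and Wnt7a, of 251, 950 and 690 bp. Just outside were peaks at 49998, 49997 and 49994 bp from Zfp191, Adamts16 and Jhdm1d, of 720, 770 and 251 bp.

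By distance from the TSS, shared peaks stood between JMJD3-only and Smad3-only peaks. These classes are not fully apart, since 844 of the 3624 JMJD3-only peaks (23.3%) had a Smad3 peak within 1 kb. Beyond 200 kb lay 29.0% of shared peaks (28.1 to 29.9), 32.4% of JMJD3-only peaks (30.9 to 33.9) and 25.9% of Smad3-only peaks (25.0 to 26.9). Against JMJD3-only peaks the odds ratio was 0.852 (0.785 to 0.925, two-sided Fisher exact test, adjusted p = 0.00023), and the share was lower on 15 of 20 chromosomes. Against Smad3-only peaks it was 1.17 (1.09 to 1.25, adjusted Fisher exact p = 1.49e-05), higher on 16 of 20. Neighbouring peaks of 1 library are not independent, so these p-values can be too small. When both peaks had to share 50% of their bases, neither difference passed (-1.81 and 1.46 percentage points, adjusted Fisher exact p = 0.0505 for each), and in the wider 50% of peaks the one against Smad3-only peaks did not (1.43 points, adjusted p = 0.241).

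The share of remote JMJD3 peaks on Smad3 was lower in the farther classes of distance. It was 76.4% (75.2 to 77.5) at 50 to 100 kb, 75.5% (74.2 to 76.7) at 100 to 200 kb, 73.7% (72.2 to 75.2) at 200 to 500 kb and 69.5% (66.3 to 72.6) beyond 500 kb. Of the remote Smad3 peaks, 59.0% (58.0 to 60.1), 60.8%, 64.6% (63.2 to 66.0) and 61.3% (58.4 to 64.2) overlapped JMJD3 in the same classes. The median width of the shared JMJD3 regions went from 680 bp in the nearest class to 621 bp in the farthest. Whether width bears on the fall was not tested.

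**Figure D2:**
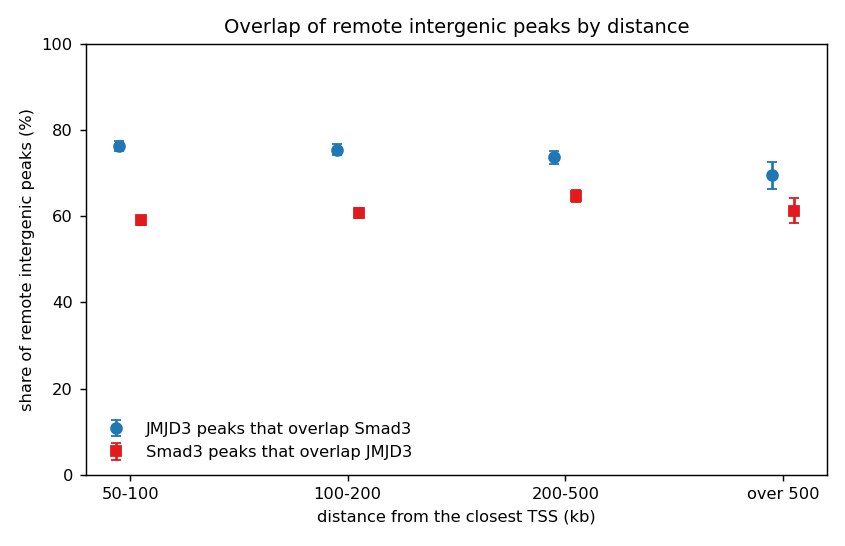
Share in percent of remote intergenic JMJD3 peaks that overlap Smad3 (circles) and of remote intergenic Smad3 peaks that overlap JMJD3 (squares) in 4 classes of distance from the closest TSS in kb, with 95% exact binomial intervals. The JMJD3 share goes from 76.4% to 69.5%, and the Smad3 share is highest, 64.6%, between 200 and 500 kb.

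No difference in the side of the closest gene passed the test. Upstream of the TSS lay 52.8% of the shared peaks (51.8 to 53.7), the rest past the end of the closest transcript. The side refers to that transcript, so an upstream peak can lie inside a longer transcript of the same gene. The upstream share was 53.0% for JMJD3-only and 53.5% for Smad3-only peaks. The odds ratios were 0.99 (0.918 to 1.07) and 0.973 (0.917 to 1.03), with two-sided Fisher exact p adjusted to 0.803 and 0.468. Over the autosomes and X, the share of remote JMJD3 peaks that overlapped Smad3 ran from 65.1% on X and 70.1% on chromosome 15 to 78.8% on chromosome 12, and none of the 3 such peaks on Y did. The shared remote peaks were 11.2% of all JMJD3 peaks on chromosomes 11 and 19 and 25.8% on chromosome 13.

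The 2386 remote shared peaks inside another listed transcript lay in 719 host genes. A host can be the closest gene itself, through another of its transcripts. Msi2, an RNA-binding protein gene of neural progenitors, held 29, and Rora, which encodes an orphan nuclear receptor, held 27. Pde4d, a phosphodiesterase gene, held 24, D18Ertd653e 22, Nav2 20 and Auts2 19, and Nfia, a nuclear factor I gene of gliogenesis, and Odz4 held 16 each. Of JMJD3-only peaks 20.3% and of Smad3-only peaks 22.3% lay inside another transcript in this way.

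The remote shared peaks named 2856 closest genes, 17.4% of the 16428 genes named in either list. A gene with close neighbours has no place for such a peak. The length of sequence that lies nearer to a gene's TSS than to any other listed TSS, more than 50 kb from it and outside the gene is called its remote territory here. Of 6832 genes with some remote territory, 2846 (41.7%) had a shared peak and 544 (7.96%) had 5 or more shared regions. The territories summed to 1380 Mb, which gives 6.08 shared regions per Mb. Regions were unevenly spread: 1135 genes had a single one, and the 544 genes with 5 or more took 49.1%. The median territory of these 544 was 0.305 Mb, against 0.0702 Mb over all genes with any.

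Of the 20 genes with most shared regions, Zfp608, a zinc finger gene, led with 35 regions, 18 upstream and 17 downstream, from 104388 to 670416 bp from its TSS. They made up 56 of its 91 JMJD3 peaks. Around the same gene lay 11 remote JMJD3-only and 25 Smad3-only peaks, so all kinds were present. Sema6d, a transmembrane semaphorin of axon guidance, followed with 27 regions, 21 of them upstream, the widest at -239989 bp with 1750 bp for JMJD3 and 850 bp for Smad3. Ncam1, the neural cell adhesion molecule, had 18 regions, all upstream, at 60.5 regions per Mb. Its widest was 1730 bp for JMJD3 and 1890 bp for Smad3 at 49807991 to 49809720 on chromosome 9.

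Bcor, which encodes the BCL6 corepressor, a subunit of a variant Polycomb complex, had 25 regions on the X chromosome, 20 of them downstream. Rybp, a subunit of variant Polycomb complexes, had 16, and its widest region spanned 1820 bp for JMJD3 and 1310 bp for Smad3. Tbl1xr1, a subunit of the NCoR corepressor complex, had 19, all upstream from 123636 to 780096 bp. Tle3, a Groucho corepressor gene, had 16, which made up a smaller part, 34.6%, of its 52 JMJD3 peaks. Zmiz1, which encodes a PIAS-like coregulator, had 19, all upstream, and the widest JMJD3 region of the 20 genes, 2230 bp beside 1830 bp for Smad3, at -81050 bp from the TSS.

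Sox4 had 17 shared regions, with 7 upstream and 10 downstream, the widest of 1750 bp for JMJD3 and 1011 bp for Smad3 at -417495 bp. Klf6 had 17, of which 13 were upstream, and Maf, a bZIP factor gene, had 9 on each side. Zfp36l1 had 21 regions, all downstream. They held 27 of its 30 JMJD3 peaks, with 1 remote JMJD3-only peak beside them. The region of 1500 bp for JMJD3 and 2120 bp for Smad3, 142634 bp downstream, was its widest. The promoters of Zfp36l1, Klf6 and Sox4 printed above each carried a peak of both factors.

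Others of the 20 were Cd83 with 21 regions, Igsf11 with 19, Trib2 with 18, Lphn2 with 17, Insc and Pik3r1 with 16 each, and Cbln4 with 15. Insc encodes an adaptor of spindle orientation and Pik3r1 a regulatory subunit of PI3-kinase. Lphn2, an adhesion receptor gene, had the sparsest territory, at 8.08 regions per Mb over 2.1 Mb. The genes of the 20 named here were thus all denser than the 6.08 per Mb of all genes. The rule picked them for number, so this is a description.

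**Figure D3:**
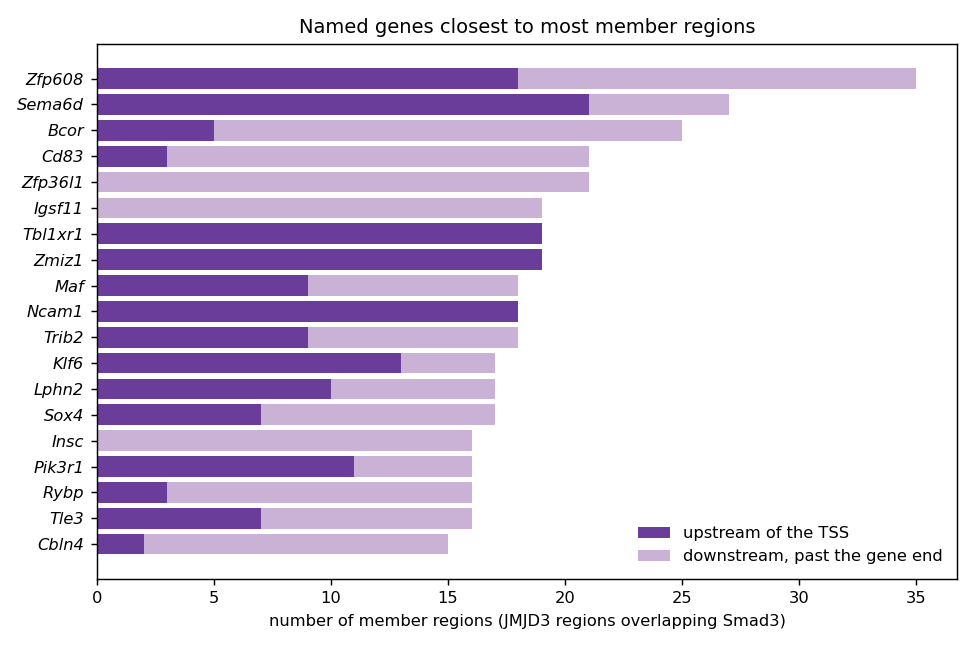
Number of remote shared regions, called member regions in the plot (horizontal axis), for the named genes with most of them, upstream of the TSS in dark and downstream in light bars. Zfp608 leads with 35, and Zfp36l1, Igsf11 and Insc have downstream regions only.

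**Figure D4:**
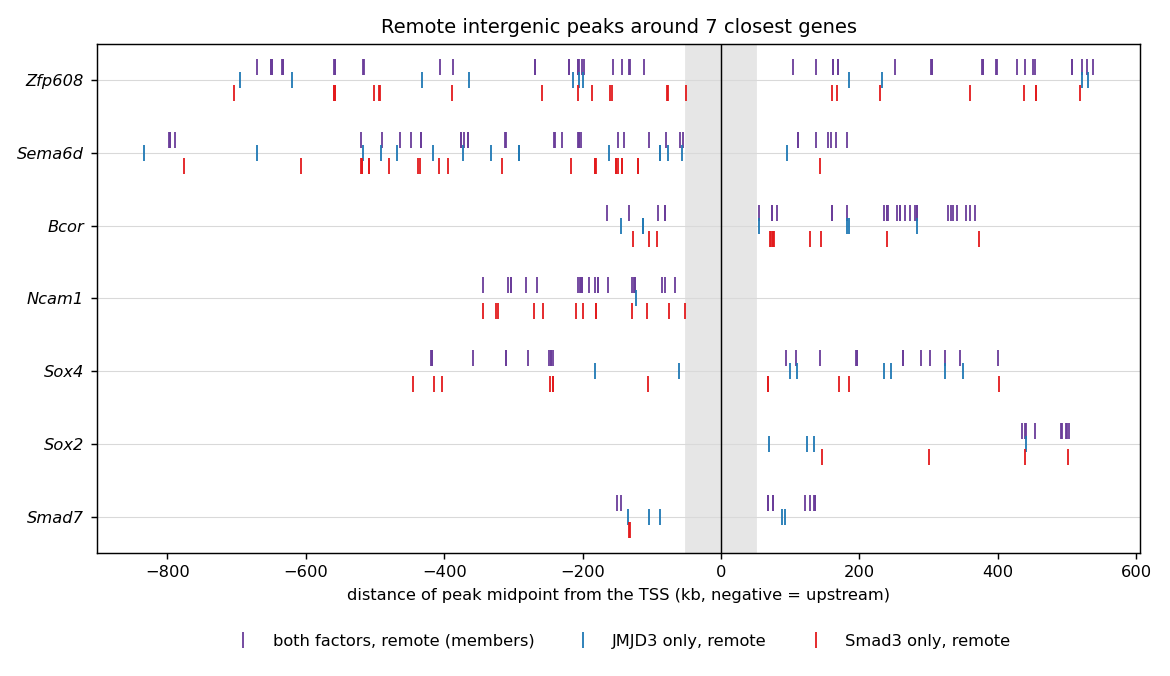
Distance of remote peaks in kb from the TSS of 7 closest genes (negative upstream, grey band 50 kb on each side), with shared peaks, JMJD3-only peaks and Smad3-only peaks as 3 rows of ticks per gene. Shared peaks of Ncam1 lie only upstream, and those of Sox2 form a group between 434.627 and 502.481 kb downstream.

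Close groups of shared regions were common. Of the 8387 regions, 3764 (44.9%) lay within 12500 bp of another, and the gaps so counted had a median of 3891 bp. Of these groups, 472 clusters of 3 or more regions held 20.1% of all regions. JMJD3-only regions had a neighbour of their class that near in 17.4% and Smad3-only regions in 41.4%. The classes differ in number, which alone changes such shares. The largest cluster had 11 regions over 48.5 kb on chromosome 12 (88126981 to 88175480), with 6430527G18Rik and Gm6772 as closest genes. JMJD3 regions covered 35.4% of it, 17162 bp in sum, and its widest regions were 2550 bp for JMJD3 and 2730 bp for Smad3.

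Clusters of 9 regions lay near Fam134b and Vamp3, among others. The first spanned 23.1 kb upstream of Fam134b, an endoplasmic reticulum receptor gene of autophagy, from 68086 to 90536 bp from its TSS. That at Vamp3, a vesicle fusion gene, spanned 53.6 kb, where the largest JMJD3 width was 1831 bp and that of Smad3 1231 bp. Clusters of 8 lay upstream of Hif1a, the hypoxia-inducible factor gene, over 42.2 kb, and downstream of Bcor over 48.6 kb.

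Around genes of TGF-beta and activin signalling the shared regions were frequent. Of 30 listed genes, 19 had remote territory and 16 of these (84.2%, 60.4 to 96.6) had a shared region, beside 41.7% of all such genes. The density was 12.03 regions per Mb, beside 6.08 over all genes. Other lists ran from 1.30 (cadherins and neuronal adhesion) to 20.9 (Wnt), with 17.8 for ribosomal protein genes. The median territory of these genes was 0.131 Mb, beside 0.0702 Mb over all genes, which leaves more room for a region. The median of shared regions per gene with territory was 3, and over all genes 0. The receptor gene Acvr2a, Smad2 and the feedback inhibitor Smad7 had 8 regions each. Those of Acvr2a reached 1739666 bp upstream, while those of Smad7 lay between 67305 and 150291 bp, 6 downstream and 2 upstream. The widest at Smad7 spanned 1350 bp for JMJD3 and 1320 bp for Smad3 on chromosome 18 from 75654251 to 75655600. Ctgf, a matricellular target of TGF-beta, had 6 regions between 101280 and 162620 bp upstream. Smad3, Skil, Kdm6b and Id1 were closest to none. Smad3 and Kdm6b had only 0.0820 and 0.0177 Mb of remote territory, and neither Skil nor Id1 was among the listed genes with any. The absence therefore says little about these genes.

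In the BMP and Id list, 9 of 14 genes with territory (64.3%, 35.1 to 87.2) had shared regions, at 7.45 per Mb. Id2 and Id4, inhibitors of basic helix-loop-helix factors, had 7 and 6. All 7 of Id2 lay upstream, up to 513069 bp away, and of Id4 5 of 6 did. The ligand gene Bmp2 and the receptor gene Bmpr1b had 3 each. Both factors were listed at the promoters of Id2, Id4 and Bmp2 and neither at that of Bmpr1b.

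Genes of neural stem and progenitor cells had shared regions in 17 of 21 cases (81.0%, 58.1 to 94.6), at 13.0 per Mb. Their median territory was 0.160 Mb. Tnc, the matrix protein tenascin of the germinal zones, had 15, and Nfia 13, all upstream in both genes. Nfib, its relative, had 7. Sox2, a core factor of these cells, had 7 regions, none closer than 434627 bp and all downstream, the widest with 1110 bp for JMJD3 and 611 bp for Smad3 at 35040141 to 35041250 on chromosome 3. Hes1, the Notch effector, had 3 regions within 92550 bp.

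Among cortical and forebrain transcription factors 22 of 28 (78.6%, 59.0 to 91.7) had shared regions, but their territories were long, with a median of 0.511 Mb, and the density was near that of all genes, 6.26 per Mb. Meis1 had 12 regions, Lmo4 10, and Nr2f1 and Zfhx3 9 each. Those of Nr2f1 (COUP-TFI, a patterning factor of the cortex) lay from 228997 to 1086737 bp upstream, and its promoter had a peak of neither factor. Neurogenic and glial fate factors had them in 16 of 24 (66.7%, 44.7 to 84.4), at 11.8 per Mb. After Sox4 came Sox11 with 10, Insm1 with 8 and Sox5 with 6. The proneural gene Neurog2 had a single region, 72566 bp downstream, wide in both libraries (1320 bp for JMJD3 and 1490 bp for Smad3). Dbx1, a neural tube patterning gene with no promoter peak of either factor, had 5 regions, from 107429 to 155764 bp downstream.

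Wnt genes had shared regions in 14 of 22 (63.6%, 40.7 to 82.8), at 20.9 per Mb, led by Tcf7l2, a nuclear effector, with 13, Ctnnb1, which encodes beta-catenin, with 11, and the receptor gene Fzd1 with 9. EGF and FGF genes had them in 15 of 21 (71.4%, 47.8 to 88.7), at 17.9 per Mb. The feedback inhibitor Spry2 had 13, of which 12 were downstream, and the receptor genes Fgfr2 and Fgfr1 had 12 and 9. Those of Fgfr1 lay at 82.8 per Mb. Notch genes had them in 4 of 9 (44.4%, 13.7 to 78.8), at 12.8 per Mb, with the ligand gene Jag1 at 5. Immediate early and AP-1 genes had them in 11 of 15 (73.3%, 44.9 to 92.2), at 12.3 per Mb, with Klf4 at 11 and Jun, an AP-1 subunit, at 7.

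Genes of the cadherin and neuronal adhesion list and of the ion channel list lay in long territories with few shared regions per Mb. Cadherin and neuronal adhesion genes had at least 1 in 29 of 39 (74.4%, 57.9 to 87.0), but over a median territory of 1.85 Mb and at 1.30 per Mb, and 3 of the 39 had 5 or more. After Ncam1, Pcdh18 had 6 and Cdh11 5, which held all 6 JMJD3 peaks of Cdh11. Ion channel and neurotransmitter receptor genes had them in 13 of 29 (44.8%, 26.4 to 64.3), at 2.97 per Mb, with 11 at Kcnj2, an inward rectifier. Axon guidance genes had them in 18 of 28 (64.3%, 44.1 to 81.4), at 5.02 per Mb. Efnb2 had 10, all downstream and up to 1338027 bp away, and Plxna2 had 9. Extracellular matrix genes had them in 17 of 26 (65.4%, 44.3 to 82.8), at 11.3 per Mb, led by Tnc and then by the protease gene Adamts5 with 6.

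Of the remaining lists, Polycomb and H3K27 demethylase genes, without Bcor and Rybp, had shared regions in 3 of 9 (33.3%, 7.49 to 70.1), with Jarid2 at 5. Transcription factors of non-neural lineages had them in 10 of 23 (43.5%, 23.2 to 65.5), with Runx1 at 9, and genes of differentiated non-neural cells in 5 of 11 (45.5%, 16.7 to 76.6). Ribosomal protein genes had them in 6 of 13 (46.2%, 19.2 to 74.9) and cell cycle genes in 4 of 10 (40.0%, 12.2 to 73.8). The last 2 lists had short territories, 1.46 and 0.436 Mb in sum, with 26 and 8 regions, which gave 17.8 and 18.4 per Mb. Rps24 alone had 13 of those 26, all downstream, over 0.434 Mb of territory on chromosome 14. Zmiz1, with all its 19 regions upstream, had a territory of the same length on that chromosome, so these genes may flank the same gap. The intervals of these 5 lists include the 41.7% of all genes, as do those of the BMP, Wnt, Notch and ion channel lists. No list was tested, and the lists differ in length of territory, which bears on these shares and can bear on the densities.

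**Figure D5:**
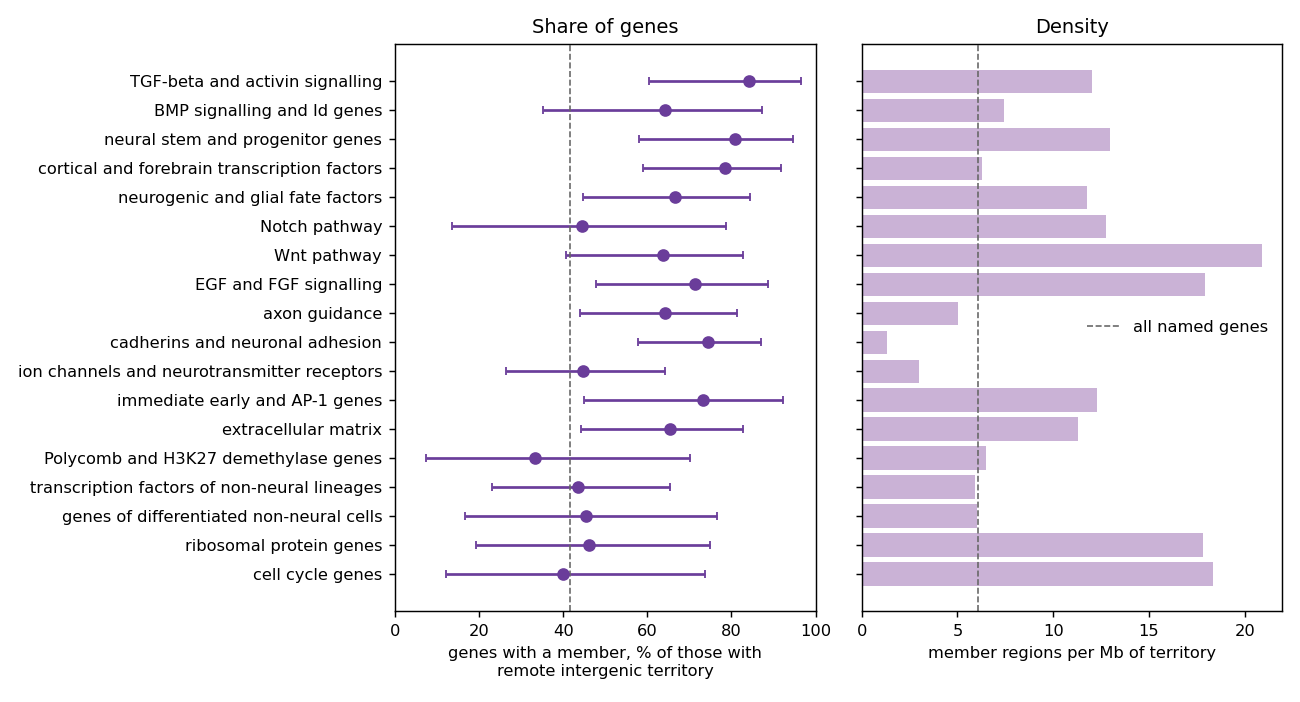
For 18 gene lists, the share in percent of genes with remote territory that were closest to a shared region (a member in the plot), with 95% exact binomial intervals (left), and the number of shared regions per Mb of summed territory (right), with dashed lines for all named genes (41.7% and 6.08). TGF-beta genes have the highest share, 84.2%, and adhesion genes the lowest density, 1.30 per Mb.

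Genes closest to shared remote peaks more often had both factors at their own promoter than genes closest only to remote peaks of 1 factor. A JMJD3 and a Smad3 peak within 1 kb of the TSS were listed for 1497 of 2856 (52.4%, 50.6 to 54.3) against 471 of 1045 (45.1%, 42.0 to 48.1). The odds ratio was 1.34 (1.16 to 1.55, two-sided Fisher exact p = 5.1e-05). Neighbouring genes are not independent, so this p-value can be too small. The groups were not matched for territory or number of remote peaks. Promoter peaks were not used to choose the remote ones. Over all genes named in either list the share was 55.1%, where many genes are named because of a promoter peak. By number of shared remote regions it was 49.0% (46.0 to 51.9) with 1 and 52.3% with 2 to 4. With 5 or more it was 59.9% (55.7 to 64.1) and with 10 or more 70.6% (60.7 to 79.2). Of the 20 genes with most, 16 had both.

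MicroRNA genes were the closest gene of 230 shared regions (2.74%), spread over 76 such genes. Mir582 led with 13 regions, 4 upstream and 9 downstream, from 52145 to 271235 bp away, and was named after its count was seen. The word intergenic holds for the closest transcript only, so these regions may lie inside another listed transcript. How many of those at Mir582 do was not counted. The mature products of Mir582, as RefSeq gives them on GRCm38.p6, are printed with the seed (bases 2 to 8) in capitals.
mmu-miR-582-5p: aUACAGUUguucaaccaguuac
mmu-miR-582-3p: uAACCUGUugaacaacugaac
The seeds of the arms differ, and no other microRNA gene had 10 or more shared regions.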

How the data were processed

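Peak lists from 1 Smad3 and 1 JMJD3 ChIP-seq library were used. The input library was not analysed here. Positions are on mm9, and MACS 1.4, Bowtie 0.12.7 and CASAVA were used, per the submitters' processing notes. The role of each tool, its thresholds and any use of the input were not given there. Per the file headers, the authors deposited per peak its position and the signed distance in bp from the closest RefSeq TSS to the midpoint, with that transcript's span, and no score or read number. Depth is therefore unknown. Each list belongs to 1 library.

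Peaks of a list at most 10 bp apart were joined into regions. Analysis used Python 3.11.15, pandas 2.3.3 and scipy 1.17.1. Remote territory was computed from TSS named in the lists, so genes with no peak of their own are missing and territories are somewhat too long. Shares carry exact Clopper-Pearson 95% intervals. Side and distance were compared by two-sided Fisher exact tests, Benjamini-Hochberg adjusted over 4 comparisons, and the promoter comparison by 1 such test. The calculations were checked on simulated peaks. A planned motif search in the peaks was not run for want of a sequence of the files' build. Promoter and microRNA sequences are RefSeq's, matched by symbol on GRCm38.p6, for 13 of the 20 genes with most regions.

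Members and gene lists were chosen with earlier results of these data known. Named were the 20 genes with most shared regions (without predicted genes and microRNAs), the 10 widest regions by lower percentile, the 5 largest clusters, up to 4 genes per list, the 5 farthest regions, those nearest the limit, and a few fixed genes. Territory, host genes, the 3 promoters and Mir582 were added after values were seen. Alternatives were a reciprocal overlap of 50%, limits of 25 and 100 kb, the wider 50% of peaks, midpoints outside every listed gene, unjoined peaks, cluster gaps of 5 and 25 kb, a promoter window of 2.5 kb, and counts over regions. Some genes and regions that these rules take are not reported here.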

Additional observations from a re-analysis of the deposited data

How the results depend on the processing

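Of 53 alternative values, 32 kept the direction and call, stayed within the interval of the reported value or, for the count of genes, stayed within 1.5 times it. The share of remote JMJD3 peaks on Smad3 (75.1%) became 53.4% with a reciprocal overlap of 50%, 74.2% with a limit of 100 kb and 71.2% in the wider 50% of peaks. The upstream share stayed uncalled throughout (adjusted Fisher exact p from 0.141 to 0.853), and its small difference changed sign with reciprocal overlap (0.58 points above JMJD3-only and 0.35 above Smad3-only peaks) and with a limit of 25 kb (0.59 and 0.29 points). The share beyond 200 kb lost its call with reciprocal overlap (-1.81 points against JMJD3-only, 1.46 against Smad3-only peaks) and, against Smad3-only peaks, in the wider 50% of peaks (1.43 points); the cause was not tested. The median JMJD3 region width (660 bp) was 651 bp with a limit of 100 kb, 700 bp in the wider 50% of peaks and 530 bp for unjoined peaks. The 2856 closest genes became 1713 with a limit of 100 kb, 4075 with 25 kb, 2123 in the wider 50% of peaks, 2303 outside every listed gene and 2617 with reciprocal overlap. The share of regions within reach of another (44.9%) was 39.5% with reciprocal overlap, 47.3% and 42.2% with limits of 25 and 100 kb, 35.7% in the wider 50% of peaks, 43.5% outside every listed gene, and 28.2% and 60.5% with gaps of 5 and 25 kb. The promoter comparison kept its call in every alternative run (7.06 to 10.7 points). No paired analysis was possible because each antibody has 1 library and no replicate numbers. With no read number in the lists, the depth behind any peak, and so what a missing overlap means, is unknown.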
